A study of Mus musculus with 6 samples.

Results

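Amino acids cross the membranes of a cell through solute carriers, and this account covers 10 of their genes in RAW264.7 cells treated with SKI-II. The genes were chosen by name, namely Slc1a4, Slc1a5, Slc3a2, Slc7a1, Slc7a5, Slc7a6, Slc7a11, Slc38a1, Slc38a2 and Slc38a9, and all 10 were found among the 49315 genes of the count table. RAW264.7 is a mouse macrophage line transformed with Abelson leukemia virus, labelled wild type. SKI-II is known as a small-molecule inhibitor of sphingosine kinase. Poly(A) RNA was sequenced from 3 libraries of cells given 4 μg/mL of SKI-II and from 3 libraries of cells given the same amount of the vehicle DMSO, all after 24 h. Every library comes from this one line, so the comparison has no second line and no other dose or time. The methods refer treatment and extraction to the qPCR assay, for which biological replicates are stated, and say that experiments were repeated independently. Neither they nor the labels tie each library to a culture of its own, so each p-value measures the spread between these libraries, which may be partly technical.

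Transporters of this set divide by partner and by cargo. Slc3a2 encodes the heavy chain of CD98, a glycoprotein that brings light chains such as LAT1 (Slc7a5), y+LAT2 (Slc7a6) and xCT (Slc7a11) to the plasma membrane. LAT1 exchanges large neutral amino acids such as leucine, y+LAT2 exchanges basic for neutral amino acids, and xCT takes up cystine in exchange for glutamate and so provides the cysteine for glutathione. Slc7a1 encodes CAT1, an importer of arginine and lysine. Slc1a5 (ASCT2) carries glutamine, and its relative Slc1a4 (ASCT1) carries alanine, serine and cysteine. Slc38a1 and Slc38a2 are sodium-coupled importers of glutamine and alanine, and Slc38a9 is a lysosomal protein that reports arginine to the mTORC1 kinase. Many of these genes are known targets of ATF4, the transcription factor of the integrated stress response. Slc7a11 is also a known target of NRF2.

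The libraries held 12495957 to 20050677 counts, and 12274 genes had enough reads for the test. The 10 transporters took between 0.242% and 0.266% of the counts of a DMSO library and between 0.242% and 0.392% of an SKI-II library. All 10 macrophage markers checked were detected, with summed levels of 142255 to 207289 normalized counts in DMSO and 91049 to 129061 in SKI-II. Lyz2, the gene of lysozyme and the marker with the most counts in every library, was lower, with 88328, 90551 and 150574 normalized counts in DMSO against 23620, 61283 and 52949 in SKI-II. Of the other markers Adgre1, Itgam and Mrc1 were lower (Mrc1 not without DMSO replicate 1 or 3 or SKI-II replicate 1 or 2, with adjusted p of 0.0535 to 0.0843), Cd14 and Fcgr1 were higher by 2.66- and 4.51-fold, and Csf1r, Cd68, Spi1 and Ptprc were not called. T cell markers stayed below 10 normalized counts in every library, with Cd3g and Cd8a at 0, as did the epithelial ones, with Epcam, Krt8, Krt18 and Cdh1 at 0. Fibroblast markers reached 14.7 normalized counts at most, with Lum at 0. A normalized count is a count divided by the TMM-scaled size of its library and multiplied by the mean of those sizes.

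With SKI-II, 4 of these transporters passed the test. Slc7a11 and Slc3a2 rose, by 3.00- and 2.70-fold, Slc38a1 rose by 1.28-fold, and Slc1a5 fell to 0.244 of its DMSO level, while the other 6 genes were not called. The Slc38a1 call was lost when single libraries were left out, and without SKI-II replicate 1 the log2 fold change of Slc3a2 was 0.79 in place of 1.43. A call needed a Benjamini-Hochberg adjusted p under 0.05, taken over all tested genes, from the quasi-likelihood test of edgeR. By this measure 3 of 10 transporters were higher, against 18.4% of all tested genes, and 1 of 10 was lower, against 19.7%. With a log2 fold change past 1 in addition, 2 were above 1 (1 without SKI-II replicate 1), against 8.28% of all tested genes, and 1 was below -1, against 7.44%. The median log2 fold change of the 10 genes was 0.18 and 6 of 10 lay above 0, while the median over all tested genes was 0.0038 and 50.2% lay above 0. With 10 genes, these counts lie near the shares over all genes, and nothing particular to the set is read from them. Because RNA was taken from the whole culture, a change in the share of cells in some state and a change in RNA per cell cannot be told apart.

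**Figure D1:**
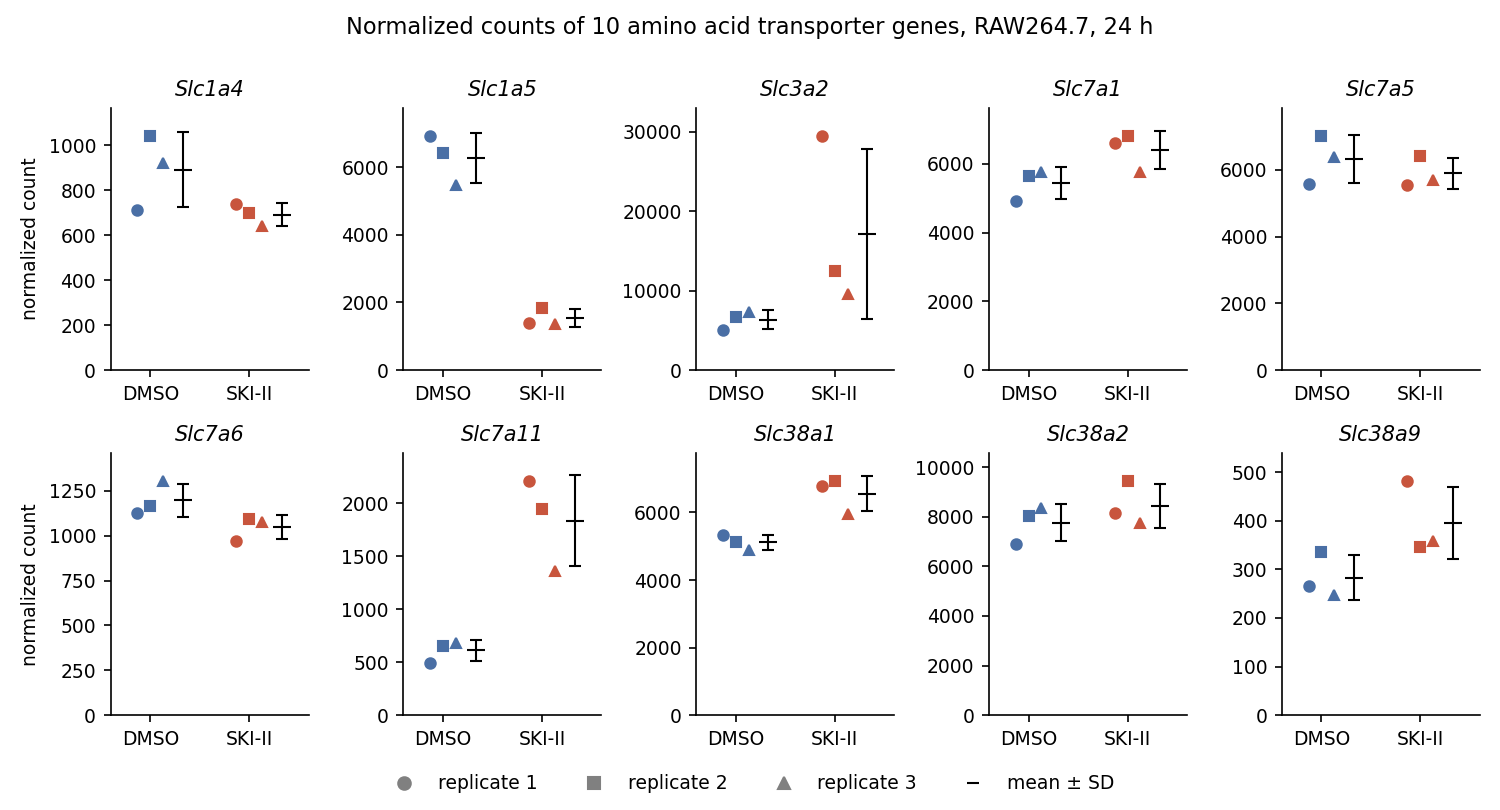
Normalized counts (y axes, each from 0) of the 10 transporter genes in 3 DMSO and 3 SKI-II libraries, with 1 marker shape per replicate number and the mean and SD at the side of each group. Slc1a5 and Slc7a11 separate the groups widely, and Slc3a2 in SKI-II replicate 1 stands far above the other SKI-II libraries.

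Promoter sequence is shown for Slc7a11 and Slc1a4, because these were the genes of the set whose window held the core of the C/EBP-ATF response element, to which ATF4 is known to bind. RefSeq windows of 300 bases, from 250 before to 50 after a start site in GRCm38.p6, were found for 7 of the 10 genes. The Slc7a11 window lies at chr3:50443564-50443863 on the minus strand and the Slc1a4 window at chr11:20332664-20332963 on the minus strand. Capitals mark matches to TGATGNAA on either strand.

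Slc7a11: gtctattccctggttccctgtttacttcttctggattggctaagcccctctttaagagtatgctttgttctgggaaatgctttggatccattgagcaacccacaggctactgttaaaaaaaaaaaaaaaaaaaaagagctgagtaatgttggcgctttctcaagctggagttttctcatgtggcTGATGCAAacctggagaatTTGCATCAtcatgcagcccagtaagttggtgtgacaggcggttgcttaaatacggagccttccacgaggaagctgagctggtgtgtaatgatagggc

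Slc1a4: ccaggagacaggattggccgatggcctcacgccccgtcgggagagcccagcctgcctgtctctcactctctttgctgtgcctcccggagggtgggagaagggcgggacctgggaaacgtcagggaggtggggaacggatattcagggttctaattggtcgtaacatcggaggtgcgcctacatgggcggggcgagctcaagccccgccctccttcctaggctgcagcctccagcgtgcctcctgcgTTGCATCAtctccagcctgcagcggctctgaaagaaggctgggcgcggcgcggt

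The Slc7a11 window held 2 matches in opposite orientations, whose first bases lie 66 and 47 bases before the start site. The Slc1a4 window held 1 match, which begins 4 bases before the start site. Over all windows of this length, 3.97% held the motif. The core of the antioxidant response element, TGACNNNGC, to which NRF2 is known to bind, was in windows of Slc38a2, Slc7a1 and Slc7a6 and in 12.4% of all windows, and the E-box CACGTG was in none of the 9 member windows and in 7.15% of all. All 3 motifs were searched on both strands, and no member window held more than 1 of them. A match describes letters and is no evidence of binding, and the letters outside these windows were not searched.

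Slc7a11, the light chain of the cystine carrier, lies on chromosome 3, from 49892526 to 50443614 on the minus strand in GRCm38. Its normalized counts were 496, 657 and 682 in DMSO replicates 1, 2 and 3, and 2209, 1946 and 1362 in SKI-II replicates 1, 2 and 3. Each SKI-II library was above every DMSO library, with replicate 3 the lowest of the SKI-II group. The mean rose from 612 ± 101 to 1839 ± 433 (SD, n = 3 per group), a log2 fold change of 1.59 with a standard error of 0.19 (edgeR adjusted p = 0.000246). In all 13 alternative analyses it was called higher, with log2 fold changes of 1.43 to 1.76.

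Slc3a2 (chromosome 19, 8706882 to 8723369, minus strand) had the widest spread between libraries of the set, in SKI-II. It was at 5046, 6655 and 7365 normalized counts across the DMSO libraries against 29463, 12505 and 9544 across those with SKI-II. The groups did not overlap, but SKI-II replicate 1 held 2.36 times as much as replicate 2 and 3.09 times as much as replicate 3. The mean went from 6355 ± 1188 to 17170 ± 10748 (SD, n = 3 per group), and the log2 fold change was 1.43 with a standard error of 0.36 (edgeR adjusted p = 0.0116). Without SKI-II replicate 1 the log2 fold change was 0.79 (adjusted p = 0.0183), a gene still called higher but no longer past 1. Few genes showed such a gap in that library. Of the tested genes, 9572 averaged 100 normalized counts or more in SKI-II, and 22 of these were in replicate 1 at 2 or more times the higher of the other two, and among the other 9 transporters that ratio reached 1.34 at most. The metallothionein genes Mt1 and Mt2 were among those 22. In SKI-II replicates 1, 2 and 3, Mt1 had 11409, 4338 and 2411 normalized counts and Mt2 had 7341, 3165 and 2228. So were Srxn1, Slc6a8 and Atf3, and all 5 were named after their values had been seen.

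The other CD98 light chains of the set, Slc7a5 and Slc7a6, did not pass the test. Slc7a5 (chromosome 8, 121881150 to 121907694, minus strand) was at 5586, 7004 and 6384 normalized counts in DMSO against 5556, 6418 and 5704 in SKI-II, so that the groups overlapped. Its log2 fold change was -0.10, with a 95% interval of -0.40 to 0.20 (adjusted p = 0.584 in edgeR's test). Slc7a6 (chromosome 8, 106168857 to 106198706, plus strand) held 1125, 1166 and 1303 normalized counts in DMSO against 972, 1094 and 1078 in SKI-II. Every SKI-II library lay below every DMSO library, yet the log2 fold change of -0.19 had an interval of -0.46 to 0.08 (adjusted p = 0.238). For both light chains the interval leaves out a change of 1 on the log2 scale in either direction. These intervals are for 1 gene each and are not adjusted for the number of genes. Outside the set, both other light chains of CD98 that were tested were higher, and they were named after their values had been seen. Slc7a7 (y+LAT1) had 260, 325 and 328 normalized counts in DMSO against 685, 790 and 798 in SKI-II, and its log2 fold change was 1.32 (adjusted p = 0.000140 in edgeR's test). Slc7a8 (LAT2) had 1704, 1238 and 1336 in DMSO against 2334, 2076 and 1954 in SKI-II, and its log2 fold change was 0.57 (adjusted p = 0.0117), a call lost without DMSO replicate 2 (adjusted p = 0.0700). Neither gene had overlapping groups.

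Slc1a5 (chromosome 7, 16781340 to 16798274, plus strand), the carrier of glutamine, was the gene of the set with the largest change. Its libraries held 6912, 6409 and 5458 normalized counts in DMSO against 1403, 1832 and 1347 in SKI-II. The lowest DMSO library was far above the highest SKI-II library. The log2 fold change was -2.03, with a 95% interval of -2.38 to -1.69 (adjusted p = 1.80e-05 in edgeR's test), and it was called in all 13 alternatives, between -2.18 and -1.95. Genes of cycling cells moved in the same direction in these libraries, with 11 of 12 proliferation genes lower at a log2 fold change below -1 and summed levels of 40026 to 50262 normalized counts in DMSO against 10779 to 12602 in SKI-II. Mcm5, Ccna2 and Aurkb, with roles in replication, the cyclin cycle and mitosis, were at -2.80, -2.77 and -2.76. The part of cell cycling in the change of Slc1a5 was not tested.

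Its relative Slc1a4 (chromosome 11, 20302180 to 20332713, minus strand) had 712, 1040 and 921 normalized counts in DMSO against 738, 698 and 639 in SKI-II, with the first DMSO library inside the SKI-II range. The log2 fold change was -0.36 (95% interval -0.71 to -0.02, adjusted p = 0.0919 in edgeR's test). Without DMSO replicate 1 it was -0.52 and the gene was called lower (adjusted p = 0.0190).

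Of the sodium-coupled carriers, Slc38a1 (chromosome 15, 96571418 to 96642913, minus strand) was at 5336, 5117 and 4883 normalized counts in DMSO against 6789, 6918 and 5952 in SKI-II. The groups did not overlap and the log2 fold change was 0.36 with a standard error of 0.12 (edgeR adjusted p = 0.0416). The call was a narrow one. It was lost without any of DMSO replicates 1, 2 and 3 or SKI-II replicates 1 and 2, with adjusted p of 0.0662, 0.151, 0.103, 0.0895 and 0.141 in that order, while the log2 fold change was between 0.32 and 0.37 in these fits. Slc38a2 (chromosome 15, 96687392 to 96699730, minus strand), a well known responder to amino acid starvation, held 6908, 8017 and 8331 normalized counts in DMSO against 8131, 9423 and 7747 in SKI-II. Its groups overlapped, with a log2 fold change of 0.12 and an interval of -0.19 to 0.43 (adjusted p = 0.523).

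Slc7a1 (chromosome 5, 148327410 to 148399904, minus strand), the arginine importer, was at 4922, 5654 and 5761 normalized counts in DMSO against 6608, 6805 and 5763 in SKI-II. The highest DMSO library and the lowest SKI-II library were nearly level. The log2 fold change was 0.23, with an interval of -0.06 to 0.52 (adjusted p = 0.187 in edgeR's test). Slc38a9 (chromosome 13, 112660751 to 112738749, plus strand), the lysosomal arginine sensor, held 266, 335 and 247 normalized counts in DMSO against 481, 346 and 359 in SKI-II. No SKI-II library was below a DMSO library, but the log2 fold change of 0.49 was not called (95% interval 0.07 to 0.91, adjusted p = 0.0663). An antisense gene, Gm47827, overlaps 182 bases of its exons. Since the strandedness of the counting is not given, how reads in these bases were assigned is not known.

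**Figure D2:**
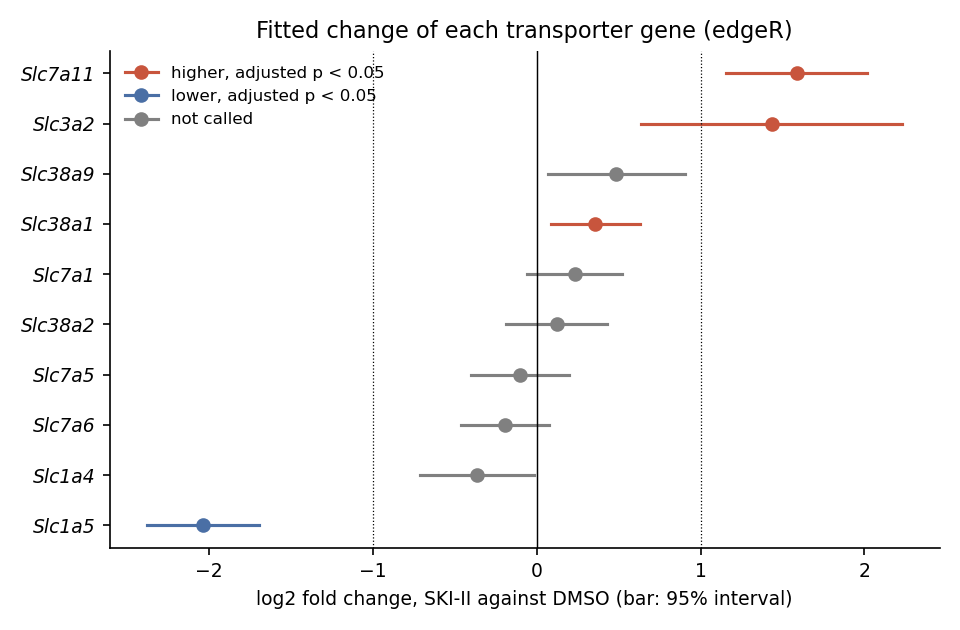
Fitted log2 fold changes (x axis) of the 10 genes with their 95% intervals from edgeR, colored by call. Slc7a11, Slc3a2 and Slc38a1 were higher and Slc1a5 lower. Dotted lines mark -1 and 1. Slc38a9 and Slc1a4 have intervals that leave out 0 but adjusted p of 0.0663 and 0.0919.

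Levels between genes were compared as RPKM, that is reads scaled by exon length in kilobases and by library size, with the summed length of all annotated exons of a gene. In DMSO, Slc3a2 at 112 ± 21.0, Slc7a5 at 106 ± 11.9 and Slc1a5 at 93.5 ± 11.0 RPKM (SD, n = 3) led the set, and the library ranges of neighbors in this order overlapped. With SKI-II, Slc3a2 was at 303 ± 190 RPKM and stood apart from Slc7a5 at 99.1 ± 7.75. Slc1a5 was at 22.8 ± 3.96 and moved to the sixth place, where its range overlapped that of Slc38a1. Slc7a11 was the ninth in both groups, at 2.74 ± 0.452 RPKM in DMSO and 8.23 ± 1.94 in SKI-II, above Slc38a9 alone. The order depended on the length used. With the longest principal transcript of each gene, Slc1a5 stood above Slc7a5 in DMSO, and in SKI-II Slc38a2 stood above Slc7a5, Slc38a1 above Slc7a1, and Slc7a11 above Slc1a4.

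Ratios between transporters of the same library do not depend on how libraries are scaled, so 5 were compared for related genes or partners. The level of Slc1a4 relative to Slc1a5 was 0.109, 0.172 and 0.179 across the DMSO libraries against 0.559, 0.405 and 0.504 across those with SKI-II, a 3.23-fold higher ratio with no overlap. Slc7a11 relative to Slc7a5 was at 0.0237, 0.0250 and 0.0285 in DMSO against 0.106, 0.0807 and 0.0636 in SKI-II, a 3.19-fold higher ratio, again with no overlap. Relative to the leucine light chain, the cystine light chain was thus higher in each SKI-II library than in any DMSO library.

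Slc3a2 relative to the sum of its 3 light chains in the set was 0.800, 0.861 and 1.02 in DMSO against 4.47, 1.68 and 1.44 in SKI-II. The difference was 1.32 on the log2 scale and 0.81 without SKI-II replicate 1, and all SKI-II libraries lay above all DMSO libraries. With Slc7a7 and Slc7a8 added to the sum, a choice made after seeing the data, the ratio was 0.648, 0.743 and 0.862 in DMSO against 3.28, 1.28 and 1.08 in SKI-II. The log2 difference was then 1.15, and 0.66 without SKI-II replicate 1. The ratios themselves depended on the length used. With the longest principal transcript of each gene, also chosen after seeing the data, the ratio to the 3 light chains was 1.43, 1.54 and 1.81 in DMSO against 7.79, 2.95 and 2.55 in SKI-II, while the log2 difference was 1.29. In contrast, Slc7a5 relative to Slc7a6 differed by 0.09 and Slc38a1 relative to Slc38a2 by 0.23 on the log2 scale, and the groups overlapped in both. In an exact two-sided permutation test the first 3 ratios had p = 0.10, the smallest value that 3 against 3 libraries allow, and an adjusted p of 0.167 over the 5 ratios. The last 2 ratios had p = 0.40 and p = 0.30 in the same exact test. With 3 libraries a group, this exact test could not reach 0.05 for any ratio.

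**Figure D3:**
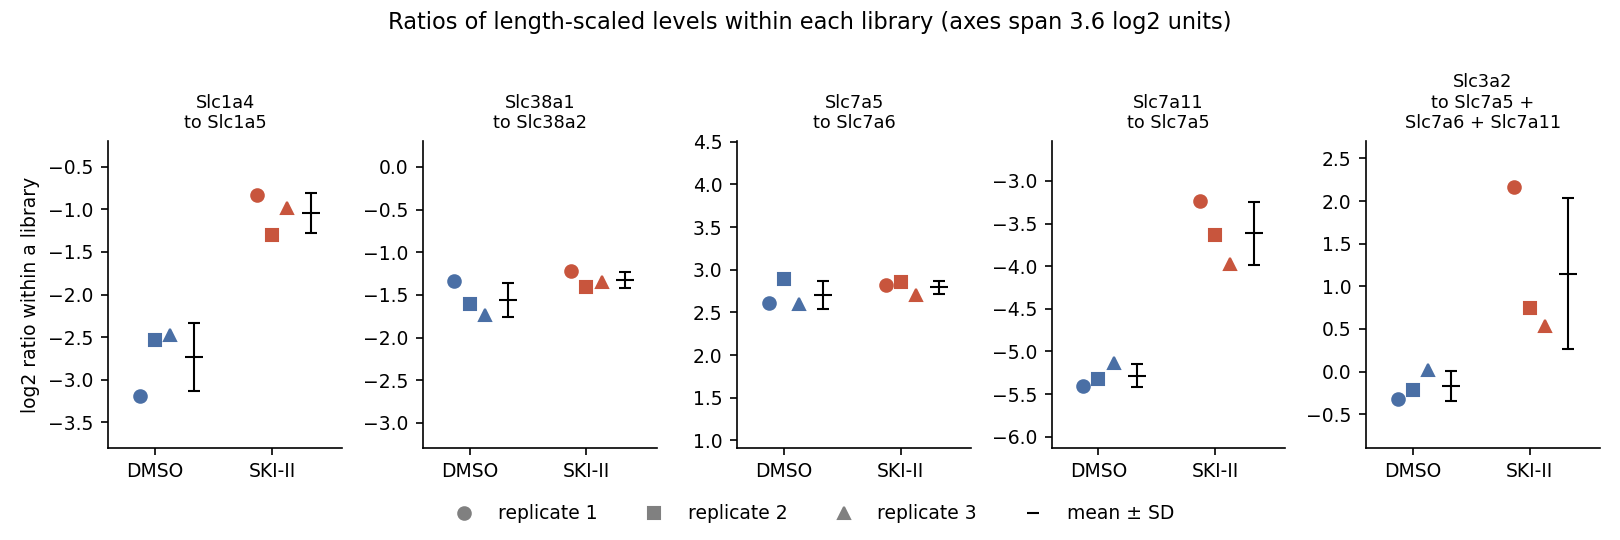
Log2 ratios of length-scaled levels within each library (y axes, each spanning the same distance) for 5 pairs, with the mean and SD of 3 libraries at the side. The groups are apart for Slc1a4 to Slc1a5, Slc7a11 to Slc7a5 and Slc3a2 to the sum of Slc7a5, Slc7a6 and Slc7a11, and overlap for the other 2 ratios.

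A list of 49 further amino acid transporters of the plasma membrane, lysosome and vesicles was examined beside the set. Of these, 19 had enough reads for the test and 15 had no read in any library. Among the 19, 7 were higher, 3 were lower and 9 were not called, with a median log2 fold change of 0.31. Slc6a9, the glycine carrier GLYT1, rose from 678 ± 133 to 2350 ± 376 normalized counts (SD, n = 3 per group), a log2 fold change of 1.79 (adjusted p = 7.24e-05 in edgeR's test). Slc38a6, a relative of Slc38a1 and Slc38a2, rose from 369 ± 59.7 to 1128 ± 261, with a fitted log2 difference of 1.61 (adjusted p = 0.000218). The lysosomal carrier of basic amino acids Pqlc2 had the largest fitted change of the list, 1.97 (adjusted p = 0.0308), but its groups overlapped. It rested on 48.6, 16.4 and 10.9 normalized counts in DMSO against 172, 93.5 and 38.3 in SKI-II, was at 2.87 without DMSO replicate 1, and lost the call without DMSO replicate 2 or 3 or SKI-II replicate 1 or 2, with adjusted p of 0.0635 to 0.155.

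Transporters of that list also fell. Mfsd12, which brings cysteine into lysosomes and melanosomes, fell from 4234 ± 367 to 2043 ± 369 normalized counts (SD, n = 3 per group), a log2 fold change of -1.05 (adjusted p = 0.000613 in edgeR's test). Slc16a10, a carrier of aromatic amino acids, had a log2 fold change of -0.82, and Slc15a4, a lysosomal carrier of histidine and peptides, one of -0.69, with no overlap between groups in either. Of 14 mitochondrial carriers of amino acids or glutathione, 11 were tested, 2 were higher and 3 were lower. Slc25a13 and Slc25a12, which exchange aspartate for glutamate, were at -0.98 and -0.46, and Sfxn1, a mitochondrial serine carrier, was at -0.83. Slc25a40, a relative of the mitochondrial glutathione carrier, was at 0.92, and Sfxn3 at 0.51.

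ATF4 is known to act on genes of amino acid synthesis and of tRNA charging as well as on transporters. A list of 37 known targets that encode no transporter held such genes. It also held stress regulators and others, such as Ppp1r15a and Ddit3. Of the 35 tested, 18 were higher and 3 lower, with a median log2 fold change of 0.55. The higher count was 14 without DMSO replicate 1 or 2 or SKI-II replicate 2, and the lower count was 5 without SKI-II replicate 3. Chac1 and Cth also stand in the glutathione list below, and Sesn2 in the lysosomal one. Over all tested genes 18.4% were higher and 19.7% lower, and the other lists are to be read against the same shares. The largest increases were those of Ppp1r15a at 3.15, Aldh1l2 at 2.64 and Ddit3 at 1.67. Ppp1r15a encodes GADD34, which returns translation after stress, Aldh1l2 is a mitochondrial enzyme of folate metabolism, and Ddit3 encodes the stress factor CHOP. Ddit3 was at 1174, 2838 and 3440 normalized counts in DMSO against 11086, 7011 and 5675 in SKI-II. The lower genes were Psat1 at -0.98, Mthfd2 at -0.58 and Shmt2 at -0.48, and Shmt2 was not called without DMSO replicate 2 (adjusted p = 0.0899). Psat1 acts in serine synthesis and the other two in mitochondrial one-carbon metabolism, as Aldh1l2 does. Of the other serine synthesis genes of the list, named after their values had been seen, Phgdh was at -0.03 and not called. Psph was higher at 0.58, a call lost without DMSO replicate 1 or 2 or SKI-II replicate 2 (adjusted p of 0.0780 to 0.114). Asns, of asparagine synthesis, was at 0.02 and not called. Among the tRNA synthetase genes of the list, Wars at 1.14 and Nars at 0.55 were called higher in the main test. Aars, Gars, Sars, Eprs, Cars, Tars, Yars and Mars were not called. These genes too were named after their values had been seen.

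Transcripts of regulators were examined next. Atf4 had a log2 fold change of 0.41 (adjusted p = 0.0412 in edgeR's test), a call lost without DMSO replicate 1 or 2 or SKI-II replicate 1 or 2 (adjusted p of 0.0722 to 0.149). Among the kinases of eIF2α, Eif2ak2 was lower at -1.08 (adjusted p = 0.00312), while Eif2ak1, Eif2ak3 and Eif2ak4 had log2 fold changes of 0.25, 0.02 and -0.32 and were not called, although Eif2ak4 was called lower without DMSO replicate 3 (adjusted p = 0.0312). Nfe2l2, which encodes NRF2, was at -0.01, its inhibitor Keap1 at -0.04 and the repressor Bach1 at -0.25, none of them called. The transcript level of these regulators says nothing about their protein or activity.

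Of the MYC family, known to drive amino acid uptake in dividing cells, Mycn was by far the more counted. It was at 15771, 17200 and 19840 normalized counts in DMSO against 7133, 10350 and 13933 in SKI-II, and the fitted log2 fold change was -0.75 (adjusted p = 0.0247 in edgeR's test). The call was lost without DMSO replicate 2 or 3 or SKI-II replicate 2, with adjusted p of 0.0563 to 0.0779. Myc had 7.77, 10.1 and 7.92 normalized counts in DMSO against 130, 80.2 and 36.7 in SKI-II, and the fitted log2 fold change was 3.24. Tfeb was lower at -1.05 (adjusted p = 0.000541), and the related Tfe3 and Mitf, at 0.19 and -0.21, were not called. Across these 13 regulators, 2 were higher and 3 lower. The higher count was 1 without any of DMSO replicates 1 and 2 and SKI-II replicates 1 and 2.

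Around cystine and glutathione, 17 genes of glutathione synthesis, reduction and breakdown, and also of cysteine synthesis and thioredoxin reduction, were listed. Of the 15 tested, 6 were higher and 1 lower (2 lower without DMSO replicate 1). The regulatory subunit of glutamate-cysteine ligase, Gclm, rose by 2.43 on the log2 scale, and Chac1, which breaks down glutathione, by 1.25. The catalytic subunit, Gclc, was at 0.49 and not called (adjusted p = 0.0742 in edgeR's test), and its groups overlapped. Gss at 0.07 and Gsr at 0.05 were not called either. The higher genes included Cth, of cysteine synthesis, at 1.06 and the thioredoxin reductase Txnrd1 at 0.61. Gclc, Gss, Gsr, Cth and Txnrd1 were named after their values had been seen. Ggt1, at 1.76, had at most 17.9 normalized counts in any library and was called only without DMSO replicate 3 when libraries were left out in turn. Gpx1, a selenoprotein that reduces peroxides, fell by 1.01.

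Amino acid sensing at the lysosome, where Slc38a9 acts, was covered by 37 genes of Ragulator, the Rag GTPases, GATOR, folliculin and mTORC1. Of 35 tested, 3 were higher, 7 lower and 25 not called, with a median log2 fold change of -0.04, beside 18.4% higher and 19.7% lower over all tested genes. Fnip2, a partner of folliculin, was at -1.30, Deptor, an inhibitor of mTOR, at -0.97 and the sestrin Sesn1 at -0.89. The higher genes were the leucine sensor Sesn2 at 0.64, the GATOR subunit Nprl3 at 0.57 and Akt1s1, which encodes the mTORC1 component PRAS40, at 0.50. Without DMSO replicate 2 the counts were 1 higher and 3 lower, and without SKI-II replicate 2 the lower ones were 4. Nprl3 was also not called without SKI-II replicate 3 (adjusted p = 0.0526), nor Akt1s1 without DMSO replicate 1 or SKI-II replicate 1 or 2 (adjusted p of 0.0590 to 0.0761).

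**Figure D4:**
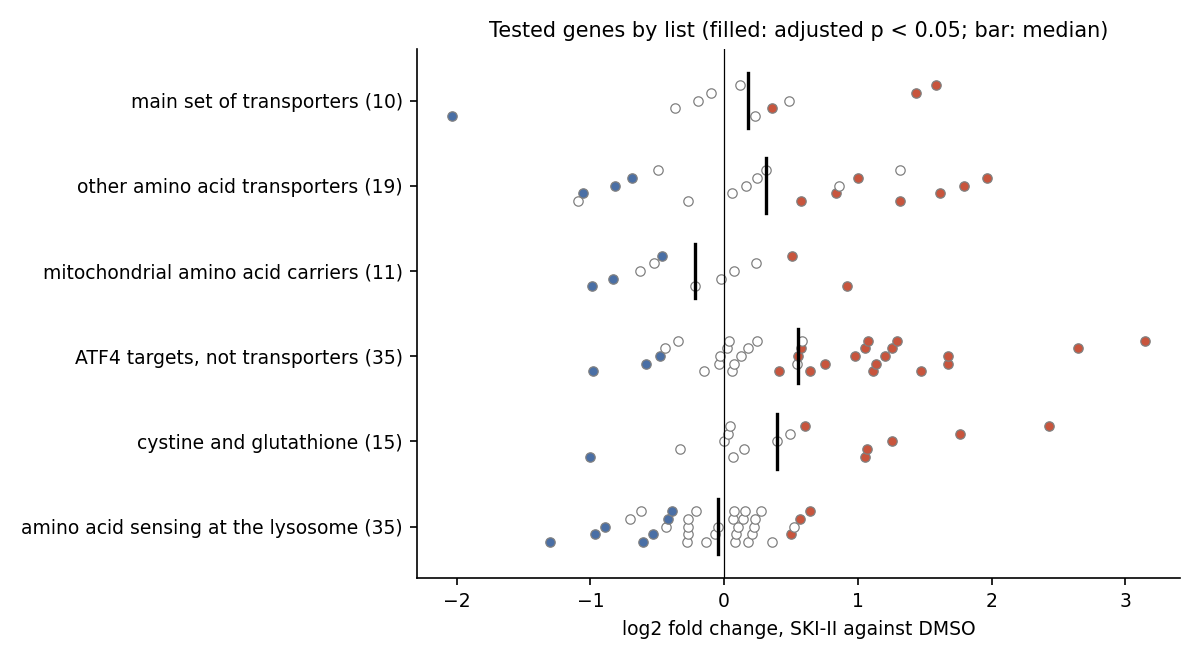
Log2 fold changes (x axis) of the tested genes of 6 lists (rows, number tested in brackets), filled where called and with a bar at the median. The main set has 3 filled points on the right and 1 on the left, and each of the other lists also has filled points on both sides of 0.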

How the data were processed

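Counts of reads per Ensembl gene were used as deposited. Per the labels and the study's methods, the authors trimmed reads with Trimmomatic 0.36, mapped them with STAR 2.5.2b, counted them with featureCounts (Subread 1.5.2) and compared groups with DESeq2. For the genome build, annotation release and strandedness, the sources used here give nothing. Names, positions and exon lengths came from GENCODE M21 (GRCm38), which named 48970 of 49315 genes, and 2 listed symbols were matched by RefSeq synonym. The main test was edgeR 4.0.16 (quasi-likelihood, TMM, filter on expression with a minimum count of 10 and total of 15) in R 4.3.3 over 12274 genes, with 95% intervals from the moderated dispersion. Depth was 12495957 to 20050677 counts per library, and intervals cover the spread between libraries. Alternatives were DESeq2 1.42.0, limma-voom (limma 3.58.1), RLE scaling, library size alone, no filter, a filter of 10 counts per library, the replicate number as a block, fits without 1 library, and edgeR's glmTreat with a threshold of 1 on the log2 scale. Exact permutation tests used SciPy 1.17.1.

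Named genes were all 10 transporters, all regulators, and in each other list the 3 called genes with the largest increase and the 3 with the largest decrease. Further genes, among them the rest of the macrophage markers, Slc7a7 and Slc7a8, were named after their values had been seen. Transporters and lists were chosen with earlier results of these data known, the lists from general knowledge. Tested on simulated data for this comparison, with 200 genes changed by a log2 fold of 2, edgeR recovered 93.5% over 12109 genes with 16 false calls, and DESeq2 94.5% over 12036 genes with 40. The simulation does not speak to smaller changes. Nor does it cover data in which, as here, 2255 genes were called higher and 2413 lower. No 2 libraries of a group agreed within sampling noise (chi-square per degree of freedom 15.4 to 58.1 over genes with at least 20 counts). The markers of 1 further cell type are not reported here.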

Additional observations from a re-analysis of the deposited data

How the results depend on the processing

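Of 130 refitted log2 fold changes of the 10 transporters, 13 per gene, 0 changed direction, 7 lost a call and 1 gained one. The lost calls were all of Slc38a1, which also fell to an adjusted p of 0.0508 with library size alone and 0.0889 with no filter, and the gained one was that of Slc1a4. The number of transporters called with a log2 fold change above 1 was 1 in the test against that threshold, where Slc7a11 and Slc1a5 stayed past it (adjusted p = 0.0276 and 0.000478 from edgeR's glmTreat) and Slc3a2 did not (0.420). With 1 library left out, that number was between 1 and 2, the number called higher between 2 and 3 and the number called lower between 1 and 2. Replicate numbers are shared by both groups. The deviations of same-numbered libraries correlated at 0.246, 0.0099 and 0.458 over 12274 genes, and those of differently numbered ones at -0.462 to 0.296. The labels state no pairing, so the main test took none. Whether libraries of the same number share some structure was not tested. With the replicate block, 3 transporters were higher and 1 lower, as without it, while higher genes over the whole table went from 2255 to 2765, and not every library correlated best with its own number. In the lists, the block gave 5 lower mitochondrial carriers, 5 lower ATF4 targets, 2 lower genes of the glutathione list and 5 higher lysosomal genes. With 3 libraries per group, the 95% intervals of the 6 genes not called reached from -0.71 (Slc1a4) to 0.91 (Slc38a9), and a missed threshold does not show that a gene was level.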
